A study of Mus musculus with 6 samples.

Results

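Imprinted genes are transcribed mainly from the allele inherited from the father or mainly from the allele inherited from the mother. A set of 41 such mouse genes, taken by name from textbook clusters, was followed in hearts of mice at postnatal day 1. This set and the gene lists below were chosen with earlier results of these data known. All 41 were found by symbol among the 56748 genes of the table, and they fall into 17 chromosomal clusters. The hearts carried the genotype FF (mice labelled Flox, the control) or a cardiac-specific knockout of Kdm5b (cKO), a demethylase of histone H3 lysine 4, with 3 libraries in each group. FF is taken here to mean a floxed Kdm5b allele without deletion, which the labels do not spell out. The labels name neither the Cre driver nor the strain, sex or allele details, and do not say whether each library came from a separate animal, so p-values measure the spread between these libraries. The RNA came from hearts, not from sorted cells, so a change in heart muscle cells is measured together with every other cell of the organ, and fewer cells of a type cannot be told apart from less RNA per cell. The reads carry no allele information here, so the text gives total RNA of each gene and says nothing of which parental copy made it.

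Imprinting is written in the germ line as DNA methylation of a control region that differs between the parental copies, and each cluster is read out through such a region. Several clusters pair a protein-coding growth gene with a long noncoding RNA, for example Igf2r with the antisense RNA Airn, Igf2 with H19, and Dlk1 with Meg3. Many paternally expressed genes promote fetal growth and many maternally expressed genes restrain it, and a large part of the network is known to be switched down after birth in many organs. Of the 41 genes, 17 are usually expressed from the paternal copy (such as Igf2, Dlk1, Mest, Peg3 and Snrpn), 10 from the maternal copy (such as H19, Igf2r, Grb10 and Zim1), and 14 are imprinted only in some tissues or transcripts, or weakly (such as Copg2, Tssc4 and Dcn).

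The start-site windows of 5 genes are shown. Of these, 4 are among the 9 genes that passed in the fit without FF replicate 3 described below. None passed with 6 libraries. The remaining gene shown, Airn, is the antisense partner of Igf2r. Mest, Zim1, Snrpn and Tssc4 also passed without FF replicate 3 and have windows that are not printed. Each runs from 250 bases before to 50 bases after a RefSeq start site on GRCm38.p6, in the direction of transcription, with every CpG in capitals, the dinucleotide at which imprints are methylated. Igf2r lies at chr17:12769657-12769956 (minus strand), Airn at chr17:12741061-12741360 (plus), Grb10 at chr11:12037371-12037670 (minus), Copg2 at chr6:30896745-30897044 (minus) and Dlk1 at chr12:109452573-109452872 (plus).
Igf2r: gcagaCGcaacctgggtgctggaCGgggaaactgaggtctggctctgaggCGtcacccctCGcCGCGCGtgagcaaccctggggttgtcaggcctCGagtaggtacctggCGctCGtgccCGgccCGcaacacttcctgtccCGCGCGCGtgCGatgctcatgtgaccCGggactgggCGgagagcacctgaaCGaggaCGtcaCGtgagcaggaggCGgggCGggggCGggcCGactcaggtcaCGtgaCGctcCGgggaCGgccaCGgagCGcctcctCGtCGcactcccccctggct
Airn: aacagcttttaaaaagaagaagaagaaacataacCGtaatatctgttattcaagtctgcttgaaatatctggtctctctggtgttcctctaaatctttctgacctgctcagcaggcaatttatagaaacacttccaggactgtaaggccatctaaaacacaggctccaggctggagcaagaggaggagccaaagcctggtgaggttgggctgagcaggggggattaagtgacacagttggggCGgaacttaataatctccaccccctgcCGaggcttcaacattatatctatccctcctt
Grb10: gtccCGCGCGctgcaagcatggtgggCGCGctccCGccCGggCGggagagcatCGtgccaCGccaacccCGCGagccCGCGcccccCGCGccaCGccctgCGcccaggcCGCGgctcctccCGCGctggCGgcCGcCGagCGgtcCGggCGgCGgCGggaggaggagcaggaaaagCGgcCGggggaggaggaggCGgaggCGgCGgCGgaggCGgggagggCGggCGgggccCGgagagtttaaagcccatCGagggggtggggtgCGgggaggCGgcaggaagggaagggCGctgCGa
Copg2: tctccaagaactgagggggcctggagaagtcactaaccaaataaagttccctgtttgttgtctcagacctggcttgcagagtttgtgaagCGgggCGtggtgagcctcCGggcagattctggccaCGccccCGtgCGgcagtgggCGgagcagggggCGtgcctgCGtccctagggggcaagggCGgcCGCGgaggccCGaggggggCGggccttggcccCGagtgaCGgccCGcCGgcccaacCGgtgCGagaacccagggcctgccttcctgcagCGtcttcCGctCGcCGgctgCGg
Dlk1: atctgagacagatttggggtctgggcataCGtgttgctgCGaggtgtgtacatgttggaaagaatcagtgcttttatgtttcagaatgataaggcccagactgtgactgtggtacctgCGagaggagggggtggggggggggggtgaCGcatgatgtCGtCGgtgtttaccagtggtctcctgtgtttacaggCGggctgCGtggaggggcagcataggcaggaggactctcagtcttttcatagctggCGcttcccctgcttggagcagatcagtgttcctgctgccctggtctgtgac
The Grb10 window held 45 CpGs, Igf2r 34, Copg2 25, Dlk1 9 and Airn 3. Grb10 has another listed start whose window held 9. The promoter table gave 51 windows for 31 of the 41 genes, with a median of 16 CpGs per window, against 7 over all 32851 windows of the same length. Letters known to be bound by imprint-related zinc finger proteins were counted on both strands, in each window separately. Some windows overlap, so the same site can be counted more than once. Overlapping Mest windows are among those with the ZFP57 letters below. The 3 windows with the PLAGL1 letters are those of Peg3 and Usp29, which overlap, and a window of Ppp1r9a. The percentages are shares of windows and not of separate sites. TGCCGC, bound by ZFP57 when methylated, was in 14 of the 51 windows (27.5%) against 11.6% of all windows, with 1 match each in the Copg2 and Grb10 windows above and none in those of Igf2r, Airn and Dlk1. GGGGCCCC, bound by PLAGL1, was in 3 of the 51 (5.88%) against 1.08% of all. TGCCGC itself holds a CpG, and a match is a description of the letters alone.

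The libraries held between 15658893 and 20339926 reads recovered from the FPKM values. Kdm5b was at 3.19, 3.25 and 3.92 FPKM in FF and at 2.80, 3.03 and 2.75 FPKM in cKO (ENSMUSG00000042207, counted over the whole gene). Each cKO library was below each FF library, at a log2 difference of -0.20 that did not pass (adjusted p = 0.447 by limma). The 8 heart muscle markers summed to 10700, 9530 and 11300 FPKM in FF and to 11300, 13700 and 12600 FPKM in cKO. One of them, Myh7, for the fetal ventricular myosin heavy chain, was at 95.6, 122.4 and 80.0 FPKM in FF and at 583.5, 750.6 and 685.4 FPKM in cKO and passed with 6 libraries (adjusted p = 0.0168 by limma). None of the others passed with or without FF replicate 3, and their directions were mixed. Ryr2 was higher in each cKO library than in each FF library. Tnni3 was lower, at 849, 706 and 800 FPKM in FF and 694, 654 and 474 FPKM in cKO. Actc1, at 4784 to 7931 FPKM, made up most of the sums. FF replicate 3 was unlike the remaining 5: its 10 thymocyte markers summed to 327 FPKM against 1.23 to 2.26 elsewhere, and its levels tracked GC content. Results are therefore given with and without it. The part of thymocyte RNA in any one difference was not tested.

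Of the 41 genes, 34 had a mean of at least 1 FPKM over the 6 libraries and were tested with 12678 genes in all. With 6 libraries, 0 of the 34 passed an adjusted p of 0.05 in limma's moderated test with Benjamini-Hochberg adjustment, where 21 genes or 0.166% of all tested genes did. At an unadjusted p under 0.05, 8 of the 34 and 2275 of the 12678 passed. The gene nearest the threshold was Igf2r, with an adjusted p of 0.0577. Without FF replicate 3, 9 of the 34 (26.5%) passed, against 12.0% of all genes. These were Igf2r, Dlk1, Zim1, Mest, Grb10 and Copg2 on the higher side in cKO, where the share over all genes was 5.73%, and Snrpn, Dcn and Tssc4 on the lower side, where it was 6.26%. At an unadjusted p under 0.05 the fit without FF replicate 3 held 14 of the 34 and 4244 genes in all. Both fits use log2(FPKM + 1), which understates the change of low genes. Every log2 difference of a gene from these fits is cKO minus FF on that scale. Log2 ratios between genes of a cluster are taken on FPKM + 0.1 instead. Leaving out FF replicate 1, FF replicate 2 or cKO replicate 3 as well brought the count of 9 to 0, and leaving out cKO replicate 2 brought it to 5.

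In the 6-library data the groups did not overlap for 11 of the 34 genes. The lowest cKO library was above the highest FF library for Igf2r, Grb10, Copg2, Zim1, Casd1 and Gnas, where 13.5% of all tested genes showed that order. The highest cKO library was below the lowest FF library for Dcn, Tssc4, Cd81, Peg13 and Snrpn, where 14.5% of all tested genes did. By parental class, the maternally expressed genes gave the highest median log2 difference: 0.45 over 7 tested genes, or 0.53 without FF replicate 3, with 3 genes past the threshold in the latter fit, all higher. The 13 tested paternally expressed genes had a median of 0.06, or -0.04 without FF replicate 3, with 2 higher and 1 lower. The 14 genes of tissue-dependent imprinting had medians of -0.004 and -0.05, with 1 higher and 2 lower. Over all genes tested the medians were 0.006 and -0.009. Without FF replicate 3, 12.0% of all tested genes passed, 5.73% higher and 6.26% lower. The shares were 42.9% of the maternal, 23.1% of the paternal and 21.4% of the tissue-dependent genes, from 3 genes in each class. The difference between the classes was not tested.

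**Figure D1:**
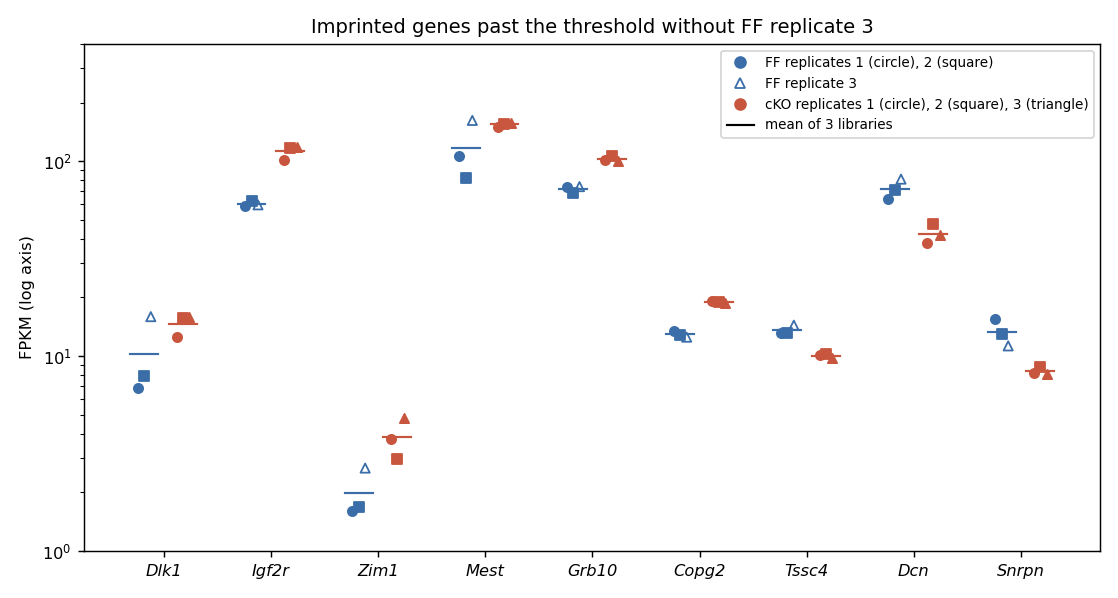
FPKM on a log axis in each library for the 9 imprinted genes past the adjusted p of 0.05 without FF replicate 3, with FF in blue, cKO in red, FF replicate 3 as an open triangle and horizontal lines at the mean of the 3 libraries of a group. Igf2r, Grb10, Copg2 and Zim1 lie higher in all 3 cKO libraries than in all 3 FF libraries, Dcn, Tssc4 and Snrpn lie lower, and for Mest and Dlk1 the open triangle lies at or above the cKO libraries.

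Igf2r (ENSMUSG00000023830, chr17:12901293-12988551, minus strand) encodes the receptor that takes IGF2 to the lysosome and so lowers its level, and it is expressed from the maternal copy. Its level was 58.99, 62.47 and 59.75 FPKM in FF replicates 1 to 3 and 102.1, 117.4 and 118.6 FPKM in cKO replicates 1 to 3. Every cKO library stood far above every FF library, and FF replicate 3 sat between the other FF libraries. The mean was 1.87 times as high in cKO, with a log2 difference of 0.89 (95% interval 0.60 to 1.17, adjusted p = 0.0577 by limma with 6 libraries). Without FF replicate 3 the difference was 0.88 and the adjusted p was 0.0159. Between 9299 and 23964 reads lay behind each value. In the RefSeq window above, this gene's start carried 34 CpGs.

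Airn, the paternally expressed RNA that silences Igf2r in cis in many tissues, starts inside Igf2r and runs the other way, and the spans of the pair overlap by 28354 bases. Airn was at 6.13, 6.30 and 2.51 FPKM in FF and at 8.43, 3.83 and 4.38 FPKM in cKO, so the groups overlapped widely. Its log2 difference was 0.14 (95% interval -0.74 to 1.02, adjusted p = 0.876 by limma), and it was -0.20 without FF replicate 3. Without a stated strand setting for the counting, reads from exons that overlap on opposite strands cannot be told apart for this pair or the antisense pairs below. The log2 ratio of Airn to Igf2r was -3.68 ± 0.72 (SD, n = 3) in FF and -4.40 ± 0.72 in cKO, a difference of -0.72 with an exact two-sided permutation p of 0.2. Without FF replicate 3 all 3 cKO ratios were below both FF ratios.

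Grb10 (ENSMUSG00000020176, chr11:11880508-11988683, minus strand) encodes an adaptor that dampens signalling from the insulin and IGF1 receptors, and outside the brain it comes mainly from the maternal copy. Its level was 73.7, 68.8 and 74.1 FPKM in FF and 101.9, 106.4 and 100.7 FPKM in cKO. The groups were separated by a gap wider than the range within either of them. The log2 difference was 0.51 (95% interval 0.25 to 0.77, adjusted p = 0.0933), and 0.53 with an adjusted p of 0.0217 without FF replicate 3, both by limma. Ddc, the neighbouring gene for aromatic amino acid decarboxylase, is imprinted in the heart and was at 40.2, 35.9 and 25.5 FPKM in FF and 38.6, 50.1 and 36.5 FPKM in cKO. Its groups overlapped, and its log2 difference of 0.31 had an adjusted p of 0.499.

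Igf2, the fetal growth factor, had low values in these hearts. H19, the maternal noncoding RNA of the same cluster, had the highest values of the 41. Another protein-coding gene on the same strand, Gm49394, overlaps the span of Igf2 over 16048 bases and was at 0 FPKM. How reads on the shared stretch were counted is not stated, so the Igf2 values may not be its full level. This was not tested. Igf2 was at 5.83, 5.64 and 16.3 FPKM in FF and at 7.22, 9.58 and 9.12 FPKM in cKO, so FF replicate 3 alone was above all cKO libraries while the other FF libraries were below them. H19 was at 933, 729 and 1419 FPKM in FF and at 1168, 1261 and 1276 FPKM in cKO, and here too FF replicate 3 was above all cKO libraries and the other FF libraries were below them. The log2 differences were 0.06 for Igf2 and 0.32 for H19 with 6 libraries (adjusted p = 0.953 and 0.546 by limma). They were 0.51 and 0.58 without FF replicate 3 (adjusted p = 0.0534 and 0.065), which stayed short of the threshold. The log2 ratio of H19 to Igf2 differed by 0.24 between the groups, and by 0.01 without FF replicate 3.

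Dlk1 (ENSMUSG00000040856, chr12:109418749-109429262, plus strand) encodes a membrane protein related to Notch ligands, is expressed from the paternal copy and marks fetal and progenitor tissues. It was at 6.82, 7.93 and 15.9 FPKM in FF and at 12.5, 15.6 and 15.9 FPKM in cKO. FF replicate 3 stood at the level of the highest cKO library, and the other FF libraries lay below all of cKO. The log2 difference was 0.56 with an adjusted p of 0.384 with 6 libraries, and 0.90 with an adjusted p of 0.0176 without FF replicate 3, by limma. On the FPKM scale the latter is a mean 1.99 times as high in cKO as in the remaining FF libraries.

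The maternally expressed noncoding RNAs of the same cluster did not pass in either fit. Meg3 was at 6.83, 10.8 and 3.56 FPKM in FF and at 11.6, 6.80 and 9.84 FPKM in cKO, with overlapping groups and adjusted p = 0.569 by limma. Rian, which hosts many small nucleolar RNAs, was at 3.71, 4.05 and 1.80 FPKM in FF and at 4.16, 3.21 and 3.70 FPKM in cKO (adjusted p = 0.706). Without FF replicate 3 their log2 differences were 0.09 and -0.06. The log2 ratio of Meg3 to Dlk1 differed by -0.10 between the groups with 6 libraries and by -0.88 without FF replicate 3, where the groups did not overlap. Mirg and Rtl1, the microRNA host and the retrotransposon-derived gene of the cluster, were below the filter, at 25 to 79 and 25 to 57 reads per library.

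Zim1 and Peg3 lie side by side on chromosome 7 and encode zinc finger proteins, Zim1 from the maternal and Peg3 from the paternal copy. Zim1 (ENSMUSG00000002266, chr7:6674268-6699449, minus strand) was at 1.60, 1.68 and 2.66 FPKM in FF and at 3.75, 2.98 and 4.79 FPKM in cKO. All 3 cKO libraries were above all FF libraries, by a mean fold of 1.94. The log2 difference was 0.70 (adjusted p = 0.161), and 0.86 without FF replicate 3 (adjusted p = 0.0315), by limma, from 217 to 840 reads per library. Peg3, which is abundant in embryos and placenta, was at 14.2, 15.4 and 6.64 FPKM in FF and at 20.6, 14.2 and 18.4 FPKM in cKO. Its groups overlapped, and its log2 differences of 0.59 and 0.24 (without FF replicate 3) had adjusted p of 0.386 and 0.328. Usp29 of this cluster was below the filter at 105 to 208 reads per library. The log2 ratio of Zim1 to Peg3 differed by 0.30 between the groups, or by 0.90 without FF replicate 3, where the groups did not overlap.

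Mest and Copg2 lie tail to tail on chromosome 6 with an overlap of 912 bases. Mest (ENSMUSG00000051855, chr6:30723546-30748464, plus strand), a paternally expressed gene of mesodermal growth, was at 107, 81.8 and 162 FPKM in FF and at 150, 156 and 158 FPKM in cKO. FF replicate 3 was above every cKO library and the other FF libraries were below. Its log2 difference was 0.46 (adjusted p = 0.390) with 6 libraries and 0.72 (adjusted p = 0.0268) without FF replicate 3, by limma. Copg2 (ENSMUSG00000025607, chr6:30747553-30873729, minus strand) encodes a coat protein of vesicles that run from the Golgi to the endoplasmic reticulum. It was at 13.5, 12.9 and 12.5 FPKM in FF and at 19.1, 18.9 and 18.7 FPKM in cKO, with SDs of 0.519 and 0.168 FPKM and no overlap. Its log2 difference was 0.51 (adjusted p = 0.0835), or 0.49 without FF replicate 3 (adjusted p = 0.0211), by limma.

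An antisense noncoding gene, ENSMUSG00000121179, lies within the span of Copg2 over 3093 bases. It was at 43.4, 41.4 and 3.21 FPKM in FF and at 36.4, 12.0 and 14.0 FPKM in cKO. Its low libraries were FF replicate 3 and cKO replicates 2 and 3. The part of reads from this gene, or from the end shared with Mest, in the Copg2 value was not tested.

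Among the genes around Peg10 on chromosome 6, none of 4 passed in either fit. Peg10, a paternally expressed gene derived from a retrotransposon, was at 4.31, 3.10 and 2.01 FPKM in FF and at 2.83, 2.65 and 3.18 FPKM in cKO. Sgce, which encodes a sarcoglycan of the muscle membrane complex, ranged from 3.15 to 4.21 FPKM over the 6 libraries. Casd1, which encodes a sialic acid acetyltransferase, was at 16.0, 12.9 and 6.64 FPKM in FF and at 16.7, 17.4 and 16.6 FPKM in cKO, so the groups did not overlap although the log2 difference of 0.55 had an adjusted p of 0.377 by limma. It was 0.22 without FF replicate 3, the FF library with the lowest value. Ppp1r9a, which encodes a neurabin that binds actin, was at 5.87, 6.74 and 2.05 FPKM in FF and between 4.23 and 6.10 FPKM in cKO. Plagl1, a paternally expressed zinc finger regulator of the imprinted network, was at 36.9, 27.6 and 13.2 FPKM in FF and at 41.8, 33.6 and 37.4 FPKM in cKO, with overlapping groups. The log2 difference of Plagl1 was 0.63 with an adjusted p of 0.404, and it was 0.23 without FF replicate 3.

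The Kcnq1 domain on chromosome 7 is controlled by the paternal noncoding RNA Kcnq1ot1 and holds 8 of the 41 genes. Tssc4 (ENSMUSG00000045752, chr7:142622986-142624830, plus strand), whose product takes part in assembly of the spliceosome, was at 13.1, 13.1 and 14.4 FPKM in FF and at 10.1, 10.2 and 9.74 FPKM in cKO. All cKO libraries were below all FF libraries, with a mean 0.739 times that of FF. Its log2 difference was -0.40 (adjusted p = 0.139) and -0.36 (adjusted p = 0.041) without FF replicate 3, by limma, from 368 to 509 reads per library. Cd81, the neighbouring tetraspanin gene, was also lower in each cKO library (122, 141 and 139 FPKM) than in each FF library (153, 147 and 185 FPKM), with an adjusted p of 0.383. Cdkn1c, the maternally expressed inhibitor of cyclin-dependent kinases, was at 23.4, 19.8 and 39.1 FPKM in FF and at 32.7, 32.0 and 26.8 FPKM in cKO. FF replicate 3 was the highest and the other FF libraries were the lowest, and its log2 differences of 0.20 and 0.48 (without FF replicate 3) had adjusted p of 0.727 and 0.055.

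Nap1l4, a histone chaperone gene, stayed between 55.8 and 67.8 FPKM over all 6 libraries (log2 difference -0.13, adjusted p = 0.611 by limma). Osbpl5, for a lipid transfer protein, was at 6.72, 6.63 and 10.9 FPKM in FF and at 6.80, 8.29 and 8.59 FPKM in cKO (adjusted p = 0.993). The other members of the domain were too low to test. Kcnq1ot1 had 72 to 416 reads over an exonic length of 93092 bases, and it lies within the span of Kcnq1 on the opposite strand. Slc22a18, a transporter gene, had 0 to 10 reads. Phlda2, a maternal gene that restrains placental growth, had 0 reads in all 6 libraries.

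Snrpn (ENSMUSG00000102252, chr7:59632243-59789967, minus strand), a paternally expressed gene for a spliceosomal Sm protein, was at 15.5, 12.97 and 11.3 FPKM in FF and at 8.19, 8.76 and 8.13 FPKM in cKO. All cKO libraries lay below all FF libraries, and FF replicate 3 was the FF library nearest to cKO. The log2 difference was -0.60 (95% interval -0.93 to -0.26, adjusted p = 0.109), or -0.70 with an adjusted p of 0.0181 without FF replicate 3, by limma. On the same strand its span overlaps Gm38393 over 22570 bases (mean 0.505 FPKM) and Snurf over 9601 bases (0 FPKM). How reads on the shared stretches were counted is not stated, so the Snrpn values may not be its full level. This was not tested. Ube3a, a ubiquitin ligase gene that is imprinted in neurons, was at 3.76, 3.19 and 0.917 FPKM in FF and at 3.70, 2.72 and 3.23 FPKM in cKO. The gene for Necdin, Ndn, was at 6.04, 7.80 and 10.7 FPKM in FF and at 6.22, 7.78 and 6.09 FPKM in cKO. Both had overlapping groups, with adjusted p of 0.675 and 0.608. The log2 ratio of Ube3a to Snrpn was higher in each cKO library than in each FF library by a mean of 1.14, or by 0.64 without FF replicate 3. The exact permutation p was 0.1, the smallest that 3 against 3 libraries can give.

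Dcn (ENSMUSG00000019929, chr10:97315471-97354005, plus strand) encodes decorin, a small proteoglycan of fibroblast matrix, and is imprinted in placenta. It was at 63.8, 70.9 and 81.0 FPKM in FF and at 37.9, 47.4 and 41.8 FPKM in cKO, and all cKO libraries were below all FF libraries. The log2 difference was -0.75 (95% interval -1.10 to -0.40, adjusted p = 0.0773), and -0.66 with an adjusted p of 0.0259 without FF replicate 3, by limma. The 8 fibroblast markers, all detected, summed to 625, 769 and 928 FPKM in FF and to 501, 632 and 632 FPKM in cKO. Of these markers, named after their values were seen, Dpt was lower without FF replicate 3 (log2 difference -0.76, adjusted p = 0.0315) and Tcf21 was higher (0.60, adjusted p = 0.0302). The part of fibroblast content in the Dcn difference was not tested.

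Peg13, a paternally expressed noncoding RNA, lies inside the span of Trappc9 on the same strand. It was at 9.64, 9.96 and 13.04 FPKM in FF and at 6.01, 8.16 and 6.68 FPKM in cKO, so the groups did not overlap, with an adjusted p of 0.155 and, without FF replicate 3, 0.0689 by limma. Trappc9, a gene for vesicle transport, was at 2.03, 2.34 and 3.71 FPKM in FF and at 2.28, 2.91 and 2.70 FPKM in cKO. The log2 ratio of Trappc9 to Peg13 was higher in each cKO library than in each FF library, by 0.64 on average (exact permutation p = 0.1). Reads on the shared stretch may have been split between the pair in a way that the sources used here do not state.

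The remaining genes stand alone or in small clusters and none passed in either fit. Gnas, for the stimulatory G protein alpha subunit, was at 5.54 to 6.11 FPKM in FF and 6.19 to 6.79 FPKM in cKO, without overlap, at a log2 difference of 0.10 (adjusted p = 0.665 by limma). Impact, a regulator of translational control, was at 5.68, 6.30 and 2.00 FPKM in FF and at 6.47, 3.95 and 4.95 FPKM in cKO. Nnat, a gene for a proteolipid that lies inside Blcap, was at 2.11, 3.79 and 4.97 FPKM in FF and 2.60, 3.18 and 2.82 FPKM in cKO, from 66 to 174 reads. Blcap ranged from 12.0 to 13.9 FPKM over the 6 libraries. Commd1, for a copper transport factor, was at 4.74, 4.19 and 3.24 FPKM in FF and 3.45, 2.85 and 2.69 FPKM in cKO, with adjusted p of 0.334 and, without FF replicate 3, 0.0598. Its span overlaps Commd1b on the same strand over 85955 bases (0 FPKM), so its values may not be its full level either. Zdbf2 was below the filter at 71 to 204 reads.

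**Figure D2:**
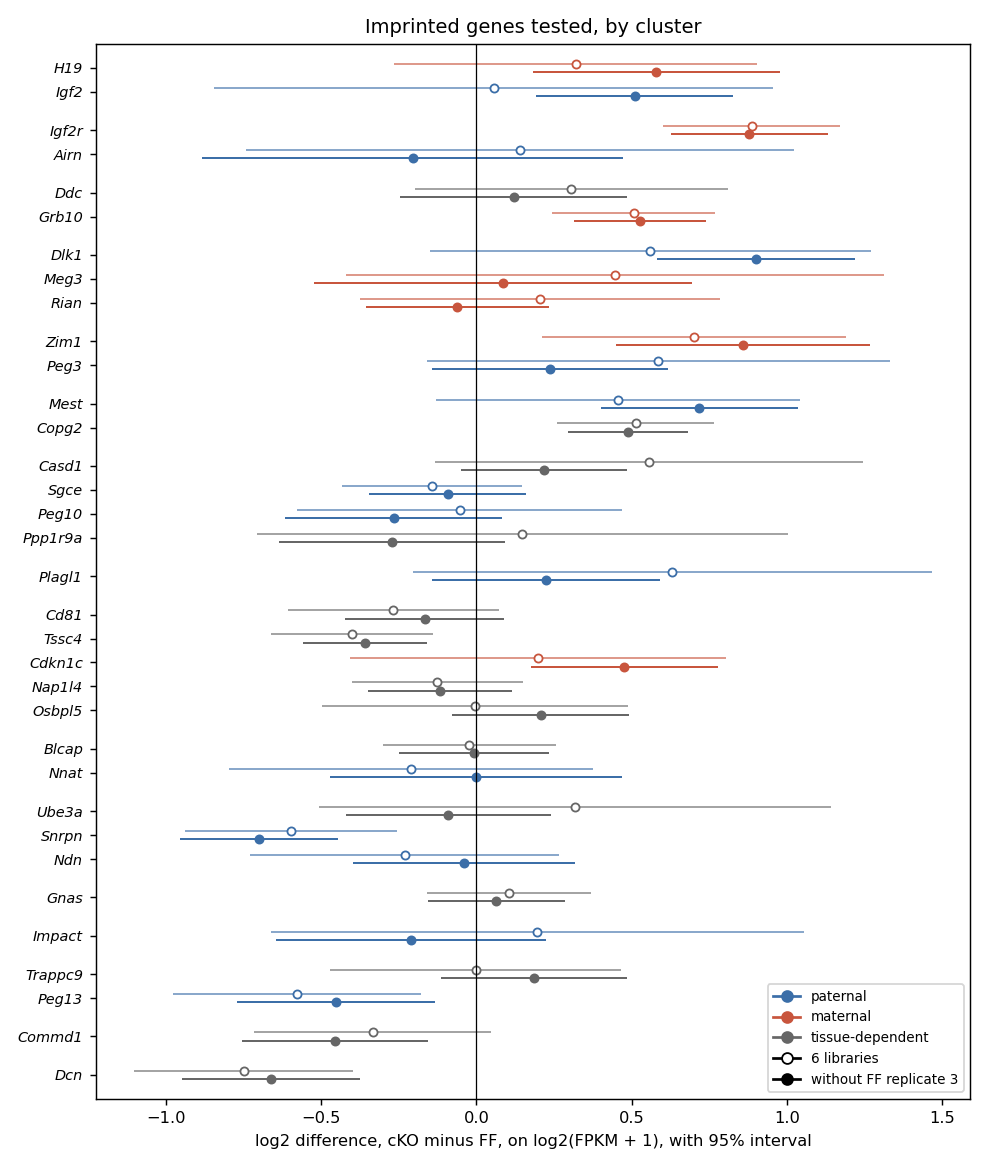
Log2 difference (cKO minus FF, on log2(FPKM + 1)) with its 95% interval for the 34 tested genes, grouped by cluster and coloured by parental class, with open points for 6 libraries and filled points without FF replicate 3. The interval is narrower without FF replicate 3 for genes such as Igf2, Dlk1 and Meg3, and Igf2r, Grb10, Copg2 and Zim1 lie above 0 in both fits while Snrpn, Dcn and Tssc4 lie below it.

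Ratios between genes of a cluster were taken for 17 pairs, as log2 of the FPKM values each raised by 0.1. With 6 libraries, Casd1 to Peg10 (0.65 higher in cKO), Ube3a to Snrpn and Trappc9 to Peg13 were the 3 pairs whose groups did not overlap. Without FF replicate 3 these pairs again did not overlap. Nor did Airn to Igf2r, Ddc to Grb10, Meg3 to Dlk1, Zim1 to Peg3, Kcnq1ot1 to Cdkn1c and Phlda2 to Cdkn1c. With so few libraries such separation was common among the pairs, and it was not tested. Phlda2 had 0 reads in all 6 libraries, so its ratio follows Cdkn1c alone and says nothing of the pair. Kcnq1ot1, at 0.040 to 0.226 FPKM, was near the 0.1 that was added. With 6 libraries none of the 17 pairs passed after Benjamini-Hochberg adjustment. The smallest adjusted p was 0.567, from exact permutation tests that cannot go below 0.1 before adjustment.

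**Figure D3:**
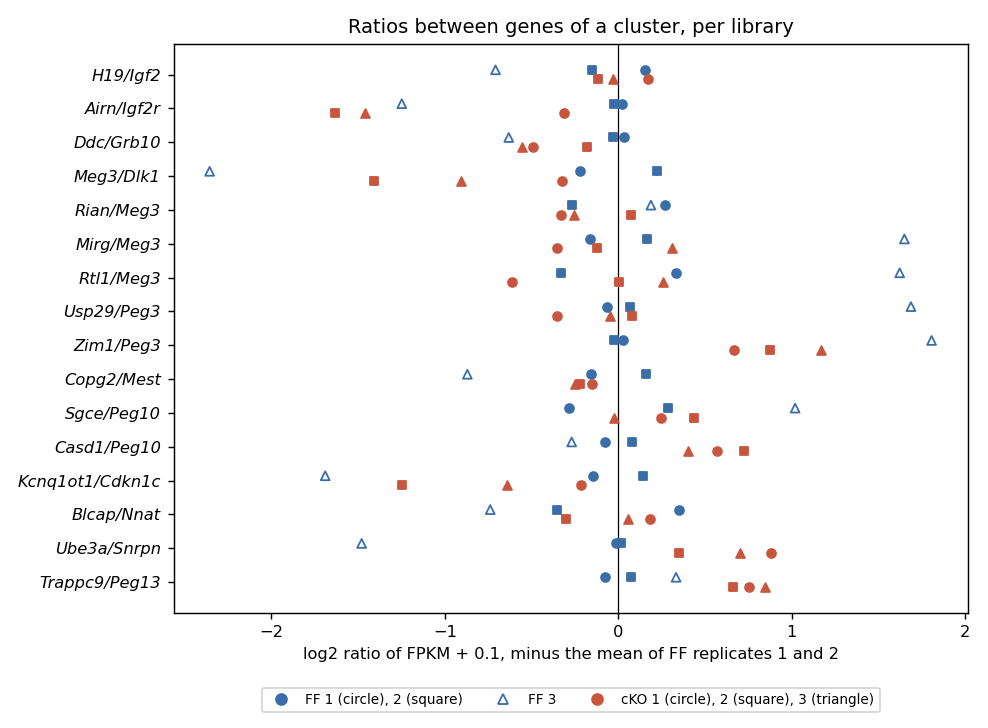
Log2 ratio of FPKM + 0.1 between 2 genes of a cluster in each library, for the pairs other than Phlda2/Cdkn1c (Phlda2 has 0 reads), minus the mean of FF replicates 1 and 2, with FF in blue, FF replicate 3 as an open triangle and cKO in red. FF replicate 3 lies far from the other FF libraries for Meg3/Dlk1, Zim1/Peg3 and Ube3a/Snrpn, and the cKO libraries lie to the right of all FF libraries for Casd1/Peg10, Ube3a/Snrpn and Trappc9/Peg13.

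The genes around the clusters were counted in the same fits. Of 100 tested genes that start within 500 kb of a member and are not members, 9 (9.0%) passed without FF replicate 3 and 0 with 6 libraries, against 12.0% of all genes in the former fit. The 100 are not a set free of imprinting. They include Asb4, Kcnq1, Dhcr7, Cobl, Zrsr1, Pon2 and Pon3, which are also in the list of other imprinted genes below. Of the 14 around Igf2r and Airn and the 5 around Grb10 and Ddc, 0 passed in either fit. All 3 around Peg13 passed without FF replicate 3. There Ago2, the slicer of small RNA pathways, was at 8.80, 8.74 and 9.45 FPKM in FF and 13.8, 15.3 and 15.4 FPKM in cKO (log2 difference 0.69, adjusted p = 0.0168 by limma). Ptk2, for focal adhesion kinase, and Chrac1, for a chromatin accessibility factor and named after its value was seen, were lower (-0.50 and -0.47). Elsewhere Klhdc10 near Mest (0.34) and Asb4 near Peg10 (0.45) were higher, and Lsp1 near Igf2 (-0.87), Rbl1 near Nnat (-0.75), Fuca2 near Plagl1 (-0.59) and Xpo1 near Commd1 (-0.66) were lower in that fit. Lsp1, a leukocyte gene, was at 30.2 FPKM in FF replicate 3 and 5.97 to 13.2 FPKM in the others.

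**Figure D4:**
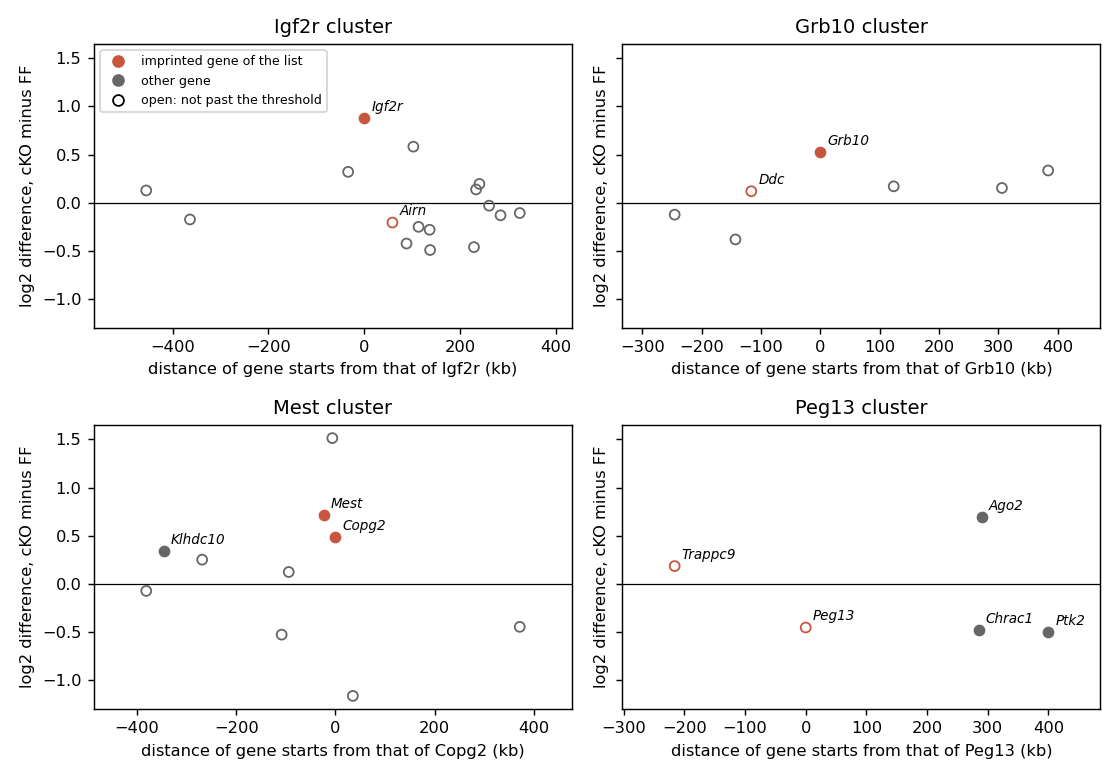
Log2 difference without FF replicate 3 (cKO minus FF) of imprinted genes (red) and other tested genes within 500 kb (grey) against the distance between gene starts (lower coordinates of the table, kb) around Igf2r, Grb10, Copg2 and Peg13, with filled points past an adjusted p of 0.05. Igf2r and Grb10 are the only filled points in their panels, and all 3 grey points around Peg13 are filled.

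Other imprinted genes outside the 41 gave 36 in the table, of which 17 were tested, and 4 passed without FF replicate 3 (23.5%), against 12.0% of all genes. Slc38a4, a paternally expressed amino acid transporter gene, was at 27.6, 23.8 and 15.8 FPKM in FF and 34.3, 37.9 and 38.6 FPKM in cKO (log2 difference 0.51). Ampd3, for AMP deaminase, and Asb4, a ubiquitin ligase adaptor, were higher by 0.63 and 0.45. Asb4 is also counted among the neighbours above. Qpct, for glutaminyl cyclase, was lower, at -0.53. With 6 libraries 0 of the 17 passed in limma, and 5 had an unadjusted p under 0.05, where 2275 of all 12678 genes did.

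Of 31 genes whose products set, keep or erase imprints or act on histone H3 lysine 4, 27 were tested and 4 passed without FF replicate 3 (14.8%), all lower, which is near the 12.0% of all genes that passed in that fit. They were Hells (-1.35), Uhrf1 (-1.004), Dnmt1 (-0.60) and Smchd1 (-0.48). Dnmt1, the maintenance methyltransferase, was at 14.6, 11.9 and 18.7 FPKM in FF and at 8.52, 8.76 and 7.84 FPKM in cKO, with no overlap and an adjusted p of 0.103 by limma with 6 libraries. Uhrf1, which brings DNMT1 to newly copied DNA, was at 16.1, 12.6 and 20.5 FPKM in FF and at 6.56, 7.48 and 5.84 FPKM in cKO. Hells, for a chromatin remodeller, was at 5.52, 4.47 and 0.827 FPKM in FF and at 1.73, 0.983 and 1.40 FPKM in cKO. Smchd1, for a protein that keeps silenced chromatin, was at 3.52, 3.29 and 1.41 FPKM in FF and at 2.13, 2.26 and 2.08 FPKM in cKO. For both, FF replicate 3 was below every cKO library, and with 6 libraries their log2 differences were -0.78 and -0.19 (adjusted p = 0.446 and 0.739 by limma). With 6 libraries 0 of the 27 passed, and 4 had an unadjusted p under 0.05, where 2275 of all 12678 genes did.

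Of 13 genes of the IGF and insulin axis, the pathway on which Igf2, Igf2r and Grb10 act, all were tested and 3 passed without FF replicate 3 (23.1%), each higher in cKO, against 5.73% of all genes higher and 12.0% in either direction in that fit. The list was chosen with earlier results of these data known, and the 3 were named after their values were seen. Igf1r, the receptor gene whose product GRB10 binds, was at 6.15, 6.69 and 3.78 FPKM in FF and 8.61, 8.68 and 8.97 FPKM in cKO (log2 difference 0.39). Irs1, the first relay behind that receptor, differed by 0.79 and Igf2bp1, which binds Igf2 and other RNAs, by 0.65. With 6 libraries 0 of the 13 passed and 4 had an unadjusted p under 0.05, where 2275 of all 12678 genes did. The groups did not overlap for 6 of them, all higher in cKO, an order found in 13.5% of all tested genes.

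FF replicate 3 lay outside the range of the other 5 libraries for 27 of the 34 tested imprinted genes (79.4%), with 14 above and 13 below, against 67.9% of all tested genes. Its log2 difference from the mean of FF replicates 1 and 2 was higher for genes of higher GC content in their longest transcript, with a Spearman's rho of 0.539 across the 34 genes and 0.639 across 12473 genes, given as a description since genes are not independent replicates. GC-rich Igf2, Dlk1, Cdkn1c and H19 were high in it and Meg3, Airn, Peg3, Plagl1, Ppp1r9a, Impact and Ube3a were low. Igf2r, Grb10 and Copg2 were close to the other FF libraries in it. Of the 9 genes past the threshold without this library, Igf2r alone had its FF replicate 3 value between the values of the other FF libraries.

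**Figure D5:**
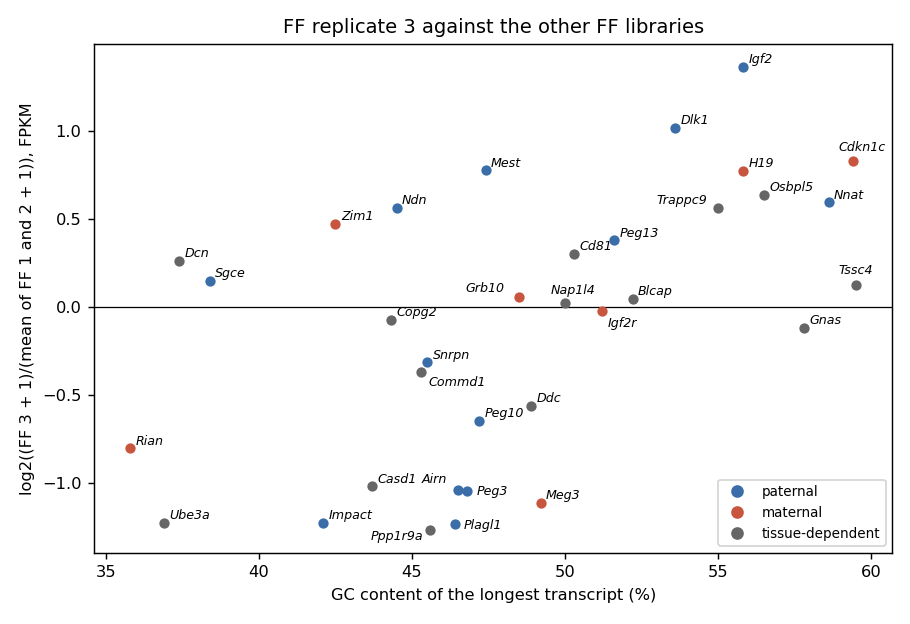
Log2 ratio of FF replicate 3 to the mean of FF replicates 1 and 2 (FPKM + 1) against the GC content of the longest transcript in percent, for the 34 tested imprinted genes coloured by parental class. Points lie higher towards the right (Spearman's rho 0.539), with Igf2 and Dlk1 above 1 and Ube3a, Impact, Ppp1r9a and Plagl1 below -1.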

How the data were processed

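RNA of mouse hearts at postnatal day 1 was sequenced in 6 libraries (3 FF, 3 cKO). The authors deposited FPKM values for 56748 genes, per the file headers. Tools listed without order in the submitters' processing notes are edgeR, featureCounts, Subread, TopHat2 2.0.13 and FastQC, and listed builds are GRCm39, mm10 and GRCh38, without a role. Annotation release and strandedness of counting were not given in the sources used here. Of the 41 gene identifiers, all are shared with GENCODE M21 on GRCm38 but only 4 had the same start and end there, so coordinates are printed as in the table, which of the mouse builds named leaves GRCm39.

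FPKM times gene length was a whole multiple of 1 step per library (100% of values under 200 reads within 0.1), which gave the reads behind each value. Relative to these reads, the deposited FPKM had been scaled to library sizes of 0.960 to 1.07 times the total, equal to a median-ratio scaling.

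The test of cKO against FF was limma 3.58.1 (R 4.3.3), fitted to log2(FPKM + 1) by group alone with a variance trend on intensity, and Benjamini-Hochberg adjusted at 0.05 over the 12678 genes with a mean of at least 1 FPKM. The fit was checked on simulated data. Ratios of genes used a two-sided exact permutation test. The 41 genes and all lists were chosen with earlier results of these data known. Named genes were all 41, those past the threshold in either fit per library, up to 2 neighbours per cluster, and up to 4 of each list of other imprinted genes and imprint factors. GC content came from GENCODE M21, promoters from RefSeq. Alternatives were other pseudocounts, filters, scalings, library weights, a robust prior, a replicate block, and leaving out each library.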

Additional observations from a re-analysis of the deposited data

How the results depend on the processing

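With 6 libraries, the count of imprinted genes past the threshold was 0, and it was 1 (Igf2r) with a filter of 5 FPKM, 1 (Igf2r) with quantile normalization and 15 (10 higher, 5 lower) with library weights. Leaving out a library gave 0 to 9, the latter without FF replicate 3. Over all genes the count of 21 became 11 with a pseudocount of 0.1, 0 with no filter, 53 with a filter of 5 FPKM, 59 with quantile normalization, 34 when rescaled outside mitochondrial and haemoglobin genes, 4300 with library weights and 13 with a robust variance prior, and leaving out a library gave 0 to 1520. Median-ratio scaling equals the scaling of the deposited values and moved no value.

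Without FF replicate 3, the count of 9 imprinted genes was 0 to 11 and that of 1520 genes was 0 to 1705 when another library was left out too, a setting chosen after seeing the data. The counts were 0 and 0 without FF replicate 1 or without FF replicate 2, 5 and 509 without cKO replicate 2, and 0 and 97 without cKO replicate 3. Leaving out FF replicate 1 or 2 leaves 1 FF library, which is assumed to vary like the cKO libraries.

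The labels do not say whether equal sample numbers pair the libraries. The correlations of deviations from the group means were 0.38, -0.24 and 0.24 for equal numbers. For unequal numbers they ran from -0.42 to 0.35. With 3 libraries per group these values cannot decide whether the libraries are paired. With a replicate block the counts were 0 imprinted genes and 2 genes in all with 6 libraries, and 1 (Dlk1) and 287 without FF replicate 3.

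Directions turned for 12 genes, none of them past the threshold with or without FF replicate 3. With library weights the log2 difference was -0.12 for Meg3, 0.24 for Osbpl5, -0.29 for Airn, -0.34 for Ppp1r9a, -0.27 for Impact, -0.095 for Rian, -0.015 for Ube3a and 0.14 for Trappc9. With quantile normalization it was 0.00056 for Nap1l4, 0.018 for Blcap and 0.0044 for Osbpl5. Median-ratio scaling over the tested genes gave 0.0029 for Osbpl5 and 0.0040 for Trappc9, and pseudocounts of 0.1 and 0.5 gave Trappc9 0.0058 and 0.0010. Leaving out a library gave -0.058 to 0.039 for Blcap, -0.18 to 0.51 for Igf2, -0.12 to 0.21 for Osbpl5, -0.20 to 0.33 for Airn, -0.27 to 0.40 for Ppp1r9a, -0.21 to 0.43 for Impact, -0.061 to 0.36 for Rian, -0.27 to 0.15 for Peg10, -0.090 to 0.57 for Ube3a and -0.13 to 0.19 for Trappc9. The cause of these turns was not tested. The 7 genes below the filter on mean FPKM were not tested, and Phlda2 and Slc22a18, at 0 to 10 reads per library, lie where depth limits any comparison.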
